A study of Homo sapiens with 12 samples.

Results

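The nuclear genes of the respiratory chain and of ATP synthase were followed in the RNA of HCT116 cells, an established human colorectal carcinoma line. The members were all protein-coding rows of the deposited count table whose name starts with NDUFA, NDUFB, NDUFC, NDUFS, NDUFV, SDH, UQCR, COX4 to COX8 or ATP5. This gave 103 of 58233 genes: 37 of complex I and 8 NDUFAF assembly factors, 4 of complex II and 4 SDHAF assembly factors, 9 of complex III, 19 of complex IV, 17 of complex V and 5 others. The others were ATP5S, ATP5SL, 2 readthrough genes and a further SDHD locus. NDUFA4 and NDUFA4L2 were placed with complex IV, where the NDUFA4 protein is found. Names are those of the table, and current names are given where they differ.

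The study depleted SDS22, a regulator of the protein phosphatase PP1, from these cells. Parental HCT116 Tet-OsTIR1 cells carry a doxycycline (Dox)-inducible gene for the plant F-box protein OsTIR1. The SDS22-degron line was derived from them as an isolated colony in which both PPP1R7 alleles encode SDS22-mAID-mClover, so that the auxin IAA targets the fusion for degradation once OsTIR1 is made. Each line was left untreated or kept with 2 µg/ml Dox and 500 µM IAA for 48 h, with 3 libraries in each of the 4 groups. Both lines therefore carry OsTIR1, and the parental line received the same agents without a degron. The SDS22-degron cells represent 1 clone, and the 3 libraries of a group are labelled as biological replicates, with no further word on cultures or days.

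Complex I (NADH dehydrogenase) and complex II (succinate dehydrogenase) feed electrons into ubiquinone, complex III passes them to cytochrome c and complex IV hands them to oxygen. Complexes I, III and IV pump protons across the inner mitochondrial membrane, and ATP synthase (complex V) lets them flow back to make ATP. Complex II is encoded by nuclear genes alone, whereas the other complexes combine nuclear subunits with a few that are made from mitochondrial DNA.

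The libraries held 12133915 to 14657508 counts on genes, from poly-A RNA. Levels are given as CPM, counts scaled to a library of 1000000 after TMM normalization. PPP1R7 RNA, whose protein the degron targets, was at 38.9 to 46.5 CPM of the library totals in untreated parental cells and at 45.6 to 51.2 in treated SDS22-degron cells, so that the transcript does not check the labels. The epithelial markers EPCAM, CDH1, KRT8, KRT18 and KRT19 were present in all 12 libraries, EPCAM at 263 to 306 CPM. Of 10 markers of other cell types, COL1A2, DCN, LUM, CD3E and CDH5 had 0 counts throughout, while PTPRC and PECAM1 reached 1 count, CD14 7 counts, VWF 1.65 CPM and COL1A1 9.88 to 31.7 CPM. Their part in the results below was not tested. In bulk RNA, fewer cells with a transcript and less of it per cell cannot be told apart.

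Of the 103 members, 93 passed the filter on low counts and were tested. Of the 10 others, 6 had 0 counts in all 12 libraries, which allows up to 0.205 to 0.247 CPM in a library (3 counts, counting error only). They include COX4I2, COX6A2, COX7A1 and COX7B2, the isoforms of complex IV subunits best known from lung, muscle and testis. COX8C and COX6B2, further tissue-restricted forms, reached 2 and 10 counts in any library. The ubiquitous forms were high: per kilobase of gene length (RPKM, mean of the 12 libraries), COX8A stood at 267, COX6B1 at 99.3, COX4I1 at 68.5, COX7A2 at 50.7 and COX6A1 at 49.9. NDUFA4L2, the hypoxia-linked relative of NDUFA4, was at 0.2703 RPKM against 13.9 for NDUFA4. Over all members, the highest level per kilobase was that of ATP5B (ATP5F1B, the catalytic beta subunit) at 475 RPKM. NDUFV2 could not be followed: its row held 8 to 30 counts per library, while the row of its processed copy NDUFV2P1 held 791 to 1085.

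Under Dox/IAA, more members fell than rose in both lines. In SDS22-degron cells, 48 of 93 tested members were lower and 3 higher, where a call needs an adjusted p under 0.05, and their median log2 fold change was -0.21. Among all 16657 tested genes, 25.5% were lower and 26% higher in this comparison, with a median of 0.0046. In parental cells, the same treatment lowered 33 members and raised 1, with a median of -0.13, against 15.7% of all genes lower and 15.9% higher and a median of 0.0015 over all genes. Of the fits with 1 library left out, the one without replicate 3 of treated parental cells gave the fewest lower members in parental cells, 18. The members' median stayed between -0.17 and -0.099 over these fits. The share of all genes called lower in them is not given here. With scaling by library size only, 19 members were lower in parental cells, with a median of -0.075 against 0.060 over all genes. All 3 treated libraries lay below all 3 untreated ones for 54 members in SDS22-degron cells (29.7% of all genes) and for 44 in parental cells (20.2% of all genes). The treated libraries numbered 3 had the lowest median over the members in their line, at -0.13 in parental and -0.20 in SDS22-degron cells relative to the mean of all libraries on the log2 scale.

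**Figure D1:**
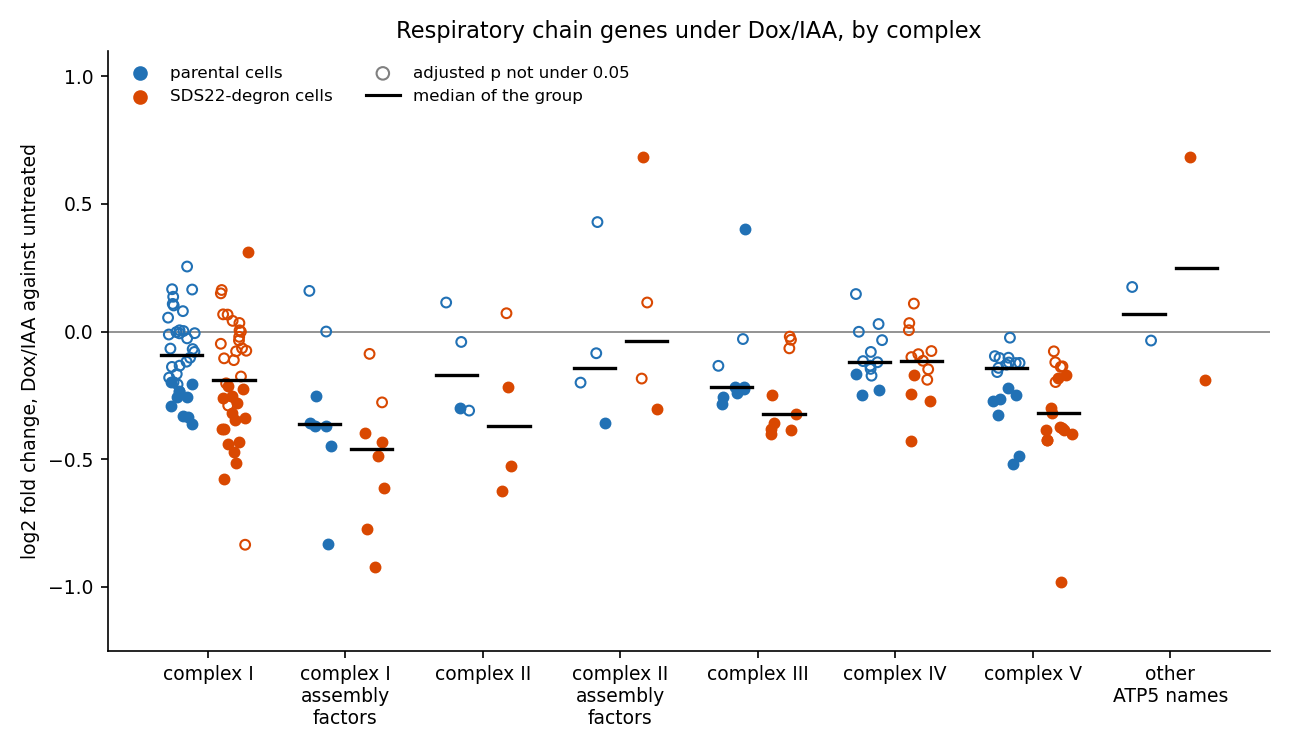
Effect of 48 h Dox/IAA on each tested member, as log2 fold change against untreated cells of the same line, by complex. Each point is 1 gene, filled where the adjusted p was under 0.05 and open otherwise, and the bars are medians. All 17 complex V genes lie below 0 in both lines (medians -0.32 and -0.14), whereas the complex IV genes of SDS22-degron cells lie around -0.11.

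As a share of all counts, the 103 members took up 0.836% to 0.871% in untreated parental libraries and 0.757% to 0.815% after treatment. In SDS22-degron cells the share was 0.867% to 0.888% before and 0.710% to 0.784% after treatment. The ranges do not overlap within either line, and the treated SDS22-degron libraries partly overlapped the treated parental ones. Complex V alone went from 0.333% to 0.345% of counts in untreated SDS22-degron cells to 0.258% to 0.286%, and from 0.310% to 0.327% to 0.271% to 0.291% in parental cells.

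The complexes were not lowered in equal numbers. In SDS22-degron cells, Dox/IAA lowered 12 of 17 complex V genes (median -0.32), 6 of 9 complex III genes (-0.32), 3 of 4 complex II genes (-0.37) and 15 of 36 tested complex I genes (-0.19). Of the NDUFAF assembly factors, 6 of 8 were lower, with a median of -0.46. Complex IV had 4 of 13 tested genes lower, with a median of -0.11. In parental cells the corresponding counts were 7 of 17, 6 of 9, 1 of 4, 9 of 36, 6 of 8 and 3 of 13. Among all genes, 25.5% were lower in SDS22-degron and 15.7% in parental cells. Differences between complexes were not tested, since the genes of a complex are not replicates.

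The promoters of the members were taken from RefSeq (GRCh38.p14), as 250 bases before and 50 after the RefSeq gene start. Of the members, 80 had an entry, of which 74 were tested, among them 23 of the 29 that fell in both lines. Nuclear respiratory chain genes are known for sites of NRF1 and of ETS factors such as GABP. The upstream 250 bases of 6 members are printed 5′ to 3′ on the gene's strand, with matches in capitals to the NRF1 core GCGCATGCG and the ETS core CCGGAAG on either strand. NDUFS6, SDHB, UQCRQ and ATP5A1, 1 from each of 4 complexes, are printed as examples of members that fell in both lines and hold a match. The shares over all tested members with a promoter are given after the sequences. ATP5G1 fell most and UQCRFS1 rose in parental cells, and neither holds one.
NDUFS6, GRCh38.p14 chr5:1801157-1801406, plus strand: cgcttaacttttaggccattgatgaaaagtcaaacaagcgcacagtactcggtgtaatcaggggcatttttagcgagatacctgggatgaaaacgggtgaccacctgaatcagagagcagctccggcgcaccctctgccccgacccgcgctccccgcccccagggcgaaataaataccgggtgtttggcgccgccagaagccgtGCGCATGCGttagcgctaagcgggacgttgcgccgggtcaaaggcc
SDHB, GRCh38.p14 chr1:17054033-17054282, minus strand: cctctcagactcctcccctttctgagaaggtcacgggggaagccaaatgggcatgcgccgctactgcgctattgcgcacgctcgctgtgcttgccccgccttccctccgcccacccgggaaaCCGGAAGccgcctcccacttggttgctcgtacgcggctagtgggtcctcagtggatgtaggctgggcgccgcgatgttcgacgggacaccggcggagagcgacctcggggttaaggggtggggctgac
UQCRQ, GRCh38.p14 chr5:132866392-132866641, plus strand: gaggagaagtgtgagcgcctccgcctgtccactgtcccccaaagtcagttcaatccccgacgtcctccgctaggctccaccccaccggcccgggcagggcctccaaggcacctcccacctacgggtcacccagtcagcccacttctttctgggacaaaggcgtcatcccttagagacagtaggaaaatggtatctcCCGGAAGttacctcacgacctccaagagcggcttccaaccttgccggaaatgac
ATP5A1, GRCh38.p14 chr18:46098297-46098546, minus strand: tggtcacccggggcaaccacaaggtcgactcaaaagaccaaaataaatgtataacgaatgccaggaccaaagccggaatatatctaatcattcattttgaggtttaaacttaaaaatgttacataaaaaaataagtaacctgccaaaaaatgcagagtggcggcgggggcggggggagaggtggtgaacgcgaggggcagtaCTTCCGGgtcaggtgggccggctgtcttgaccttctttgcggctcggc
ATP5G1, GRCh38.p14 chr17:48892537-48892786, plus strand: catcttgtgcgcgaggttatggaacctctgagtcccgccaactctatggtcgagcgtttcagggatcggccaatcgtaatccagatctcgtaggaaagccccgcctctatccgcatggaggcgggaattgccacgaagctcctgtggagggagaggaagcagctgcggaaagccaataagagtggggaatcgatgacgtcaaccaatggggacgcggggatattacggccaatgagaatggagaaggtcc
UQCRFS1, GRCh38.p14 chr19:29213152-29213401, minus strand: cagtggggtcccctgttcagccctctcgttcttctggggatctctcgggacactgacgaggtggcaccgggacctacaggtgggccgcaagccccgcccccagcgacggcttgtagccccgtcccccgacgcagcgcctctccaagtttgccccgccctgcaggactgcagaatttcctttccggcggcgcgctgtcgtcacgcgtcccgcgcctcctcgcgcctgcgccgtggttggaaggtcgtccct

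Over the whole 300 bases, the NRF1 core was found in 13.5% of the 74 tested members, in 1.90% of all 34796 promoters and in 3.71% of the 10634 promoters matched to tested genes. For the ETS core the shares were 29.7%, 10.2% and 19.3%, and for the YY1 core AAGATGGCG 10.8%, 1.76% and 4.02%. The SP-type box GGGCGGG was found in 32.4% of members, 33.1% of all promoters and 55.0% of those of tested genes. The motifs were searched on both strands, and the SP box is not in capitals above. Members that fell in both lines (n = 23) and the other tested members (n = 51) had the NRF1 core in 3 and 7 members, the ETS core in 8 (34.8%) and 14 (27.5%), the YY1 core in 3 and 5 and the SP box in 8 and 16. These are descriptions of letters in a window, and no test was made.

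Complex V held the gene with the lowest fold change. ATP5G1 (ATP5MC1; ENSG00000159199, chr17:48892765-48895871, plus strand) is 1 of 3 genes that encode the same mature c subunit, of which the rotating ring of ATP synthase is built. It was at 73.3, 75.7 and 67.2 CPM in untreated parental cells, 49.8, 54.8 and 46.1 in treated parental cells, 74.4, 66.9 and 75.5 in untreated SDS22-degron cells and 38.4, 36.1 and 35.2 in treated SDS22-degron cells. The untreated lines overlapped, treatment moved all libraries down in both lines, and the treated SDS22-degron libraries were the lowest. The log2 fold change was -0.98 (SE 0.081, adjusted p = 2.11e-08) in SDS22-degron cells, where the level fell by 49.4%, and -0.52 (SE 0.079, adjusted p = 9.90e-05) in parental cells.

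The other c-subunit genes moved less. ATP5G2 (ATP5MC2) went from 149, 127 and 143 to 121, 99.5 and 113 CPM in parental cells, a log2 fold change of -0.33 (SE 0.085, adjusted p = 0.00702). In SDS22-degron cells it was at 113, 114 and 115 before and 103, 108 and 87.5 CPM after treatment, at -0.20 (SE 0.085, adjusted p = 0.0606). ATP5G3 (ATP5MC3) had the reverse order: -0.37 (SE 0.071, adjusted p = 0.000243) in SDS22-degron cells and -0.12 (SE 0.071, adjusted p = 0.208) in parental cells. Per kilobase, the 3 genes had similar levels, at 22.1, 29.1 and 29.9 RPKM.

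The genes of the alpha subunit and the catalytic beta subunit fell in both lines. Of paired values, the first is for SDS22-degron and the second for parental cells. The level of ATP5B was 1182, 1206 and 1165 CPM in untreated parental cells, 1013, 974 and 953 in treated parental cells, 1247, 1288 and 1334 in untreated SDS22-degron cells and 1011, 939 and 931 in treated SDS22-degron cells. The treated and untreated libraries of a line did not overlap, and the log2 fold change was -0.42 (SE 0.063, adjusted p = 1.93e-05) in SDS22-degron and -0.27 (SE 0.063, adjusted p = 0.00302) in parental cells. ATP5A1 (ATP5F1A, the alpha subunit) changed by -0.38 (SE 0.061, adjusted p = 4.02e-05) and -0.22 (SE 0.061, adjusted p = 0.0103), and ATP5D (ATP5F1D, the delta subunit of the central stalk) by -0.38 (SE 0.062, adjusted p = 5.78e-05) and -0.49 (SE 0.063, adjusted p = 2.12e-05). ATP5D was among the 3 lowest called members in parental cells, from 145, 143 and 149 to 108, 106 and 97.4 CPM. The peripheral-stalk genes ATP5F1 (-0.40), ATP5J (-0.32), ATP5O (-0.30) and ATP5H (-0.17) were all lower in treated SDS22-degron cells. On the other strand, ATP5F1 overlaps WDR77, which had -1.35 there, ATP5J overlaps GABPA (-0.019) and ATP5H overlaps KCTD2 (0.043). The named pseudogenes of ATP5H held 11416 counts, against 15079 in its own row. ATP5E, the epsilon subunit, did not pass in either line (-0.14 and -0.10), and its row and that of its near-identical copy ATP5EP2 held 14698 and 12129 counts, so that reads may be split between them.

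**Figure D2:**
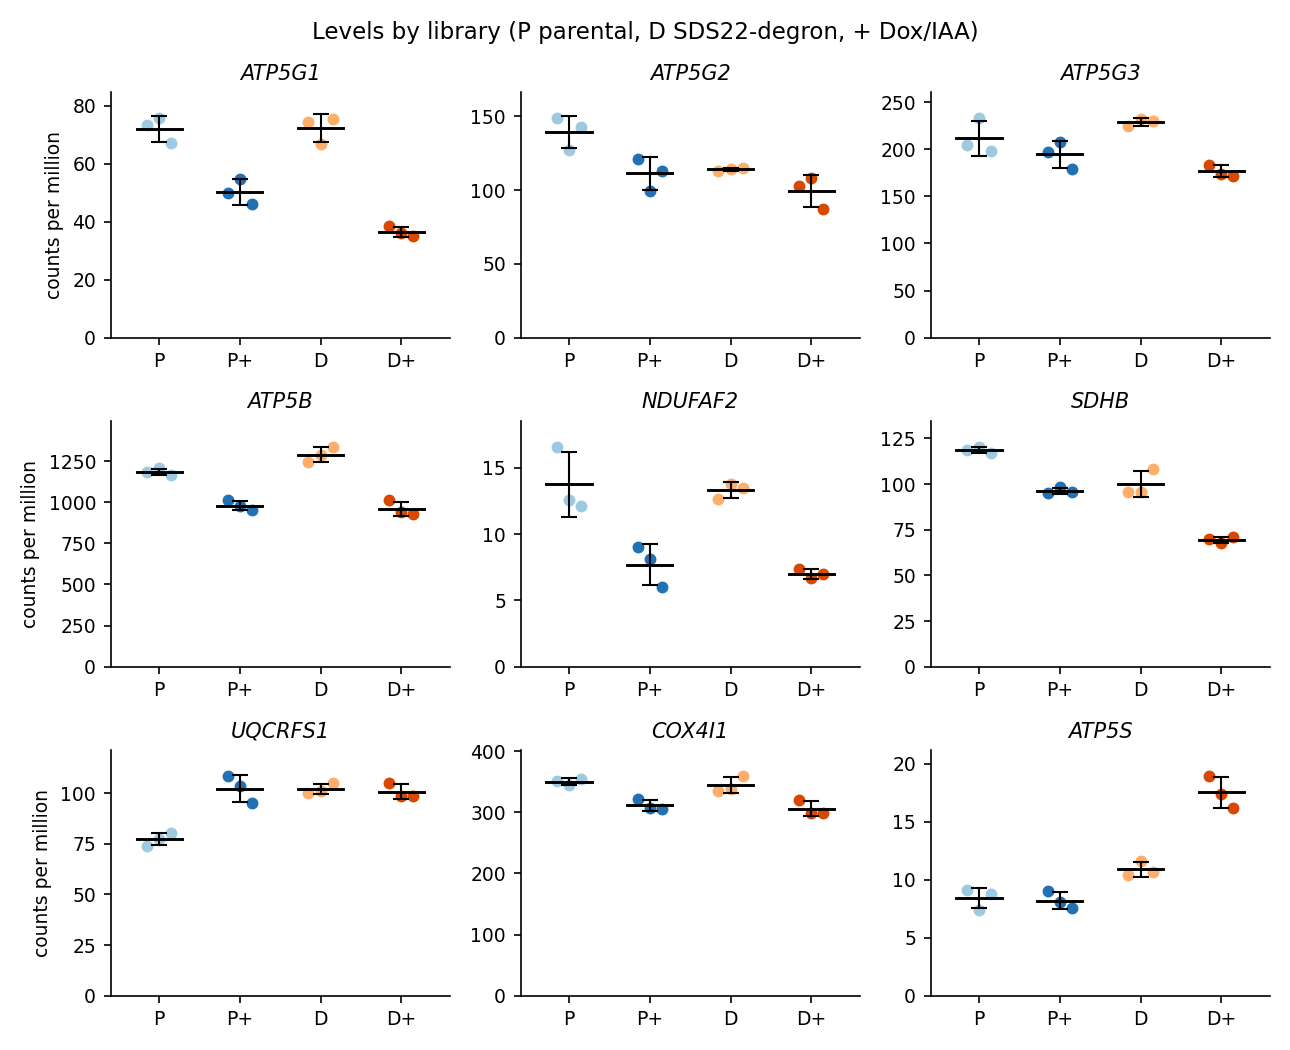
CPM of 9 members in each of the 12 libraries, with group means and SD (n = 3); each axis starts at 0. ATP5G1 is lowest in treated SDS22-degron cells (mean 36.6), UQCRFS1 is lowest in untreated parental cells (77.3) and ATP5S is highest in treated SDS22-degron cells (17.5).

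In complex I, the gene for the NADH-binding subunit fell in both lines. NDUFV1, which binds NADH and flavin, was at 139, 134 and 133 CPM in untreated parental cells, 103, 119 and 101 in treated parental cells, 146, 136 and 147 in untreated SDS22-degron cells and 99.1, 103 and 98.6 in treated SDS22-degron cells. The treated libraries lay below the untreated ones in each line, with log2 fold changes of -0.52 (SE 0.067, adjusted p = 4.21e-06) and -0.33 (SE 0.067, adjusted p = 0.00107) in SDS22-degron and parental cells. NDUFS1, the largest iron-sulfur subunit, was lower in SDS22-degron cells (-0.25, SE 0.060, adjusted p = 0.00177), and its value in parental cells was -0.069 (SE 0.060, adjusted p = 0.416). Of the accessory subunits, NDUFB10 had the lowest log2 fold change among the called complex I subunits in SDS22-degron cells, -0.58 (SE 0.079, adjusted p = 7.68e-06). NDUFA13 was the only complex I gene called higher (0.31, SE 0.12, adjusted p = 0.0355), from 6.63, 6.95 and 6.68 to 7.78, 8.52 and 8.89 CPM. That call was lost in 13 of 26 alternatives, 8 of them with 1 library left out, and the gene shares a strand and its interval with YJEFN3.

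Of the NDUFAF assembly factors, the median log2 fold change was -0.46 in SDS22-degron and -0.36 in parental cells, against -0.19 and -0.091 over the complex I subunits. NDUFAF2 (ENSG00000164182, chr5:60945129-61153037, plus strand), a chaperone that stays on late assembly intermediates, was at 16.5, 12.6 and 12.1 CPM in untreated parental cells, 8.997, 8.14 and 5.98 in treated parental cells, 12.6, 13.8 and 13.5 in untreated SDS22-degron cells and 7.398, 6.66 and 7.001 in treated SDS22-degron cells. Treatment moved all libraries of both lines down, with log2 fold changes of -0.92 (SE 0.15, adjusted p = 4.75e-05) in SDS22-degron and -0.83 (SE 0.15, adjusted p = 0.00038) in parental cells. This was the lowest value of any member in parental cells. NDUFAF4, which works with NDUFAF3 in early assembly, changed by -0.77 (SE 0.11, adjusted p = 1.42e-05) and -0.36 (SE 0.11, adjusted p = 0.0199), and NDUFAF8, a partner of NDUFAF5, by -0.61 (SE 0.086, adjusted p = 1.02e-05) and -0.37 (SE 0.088, adjusted p = 0.00381). NDUFAF1 and NDUFAF7 did not pass in either line.

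In complex II, SDHA, SDHB and SDHD fell in SDS22-degron cells and SDHB in parental cells. SDHB, the iron-sulfur subunit, was at 119, 120.2 and 117 CPM in untreated parental cells, 95.2, 98.4 and 95.9 in treated parental cells, 95.9, 95.9 and 108 in untreated SDS22-degron cells and 69.7, 67.8 and 70.99 in treated SDS22-degron cells. Within each line the ranges did not overlap, and the log2 fold changes were -0.53 (SE 0.064, adjusted p = 1.98e-06) and -0.30 (SE 0.063, adjusted p = 0.00147). SDHA, the flavoprotein that oxidizes succinate, was lower in SDS22-degron cells, at -0.22 (SE 0.058, adjusted p = 0.00442), with -0.041 (SE 0.058, adjusted p = 0.639) in parental cells. The anchor SDHD changed by -0.62 (SE 0.12, adjusted p = 0.000382) and -0.31 (SE 0.12, adjusted p = 0.0642), whereas the anchor SDHC had 0.072 and 0.11, neither called. The assembly factor SDHAF4, which binds flavinated SDHA, was higher in treated SDS22-degron cells: 5.32, 5.43 and 5.92 CPM before and 9.53, 9.602 and 7.58 after treatment, 0.68 (SE 0.16, adjusted p = 0.0017). In parental cells SDHAF4 had 0.43 (SE 0.16, adjusted p = 0.0511). SDHAF3, a maturation factor of SDHB, was lower in treated SDS22-degron cells, at -0.30 (SE 0.10, adjusted p = 0.0191).

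Of complex III, the same 6 genes fell in both lines. The core gene UQCRC1 changed by -0.39 (SE 0.061, adjusted p = 3.63e-05) and -0.22 (SE 0.060, adjusted p = 0.00852). The other core gene, UQCRC2, changed by -0.32 (SE 0.058, adjusted p = 0.000153) and -0.24 (SE 0.057, adjusted p = 0.00375). The small subunits UQCRQ (-0.40 and -0.22), UQCRH (-0.36 and -0.26) and UQCR11 (-0.25 and -0.22) were also lower. UQCRHL, a near-identical copy of UQCRH, had -0.38 and -0.29, and reads may be shared between the pair. UQCR10 and UQCRB passed in neither line.

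UQCRFS1 (ENSG00000169021, chr19:29205321-29213541, minus strand), which encodes the Rieske protein that takes electrons from ubiquinol, followed another pattern. It was at 74.1, 77.5 and 80.3 CPM in untreated parental cells, 108, 103 and 94.95 in treated parental cells, 100.2, 101 and 105 in untreated SDS22-degron cells and 105, 98.4 and 98.6 in treated SDS22-degron cells. The untreated parental libraries were below all 9 others, among which the groups overlapped. Treatment raised it in parental cells by 0.40 (SE 0.066, adjusted p = 0.000185), while the value in SDS22-degron cells was -0.020 (SE 0.065, adjusted p = 0.821), with a 95% interval of -0.16 to 0.12.

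Among the 5 complexes, complex IV had the smallest share of lower calls in SDS22-degron cells, 4 of 13, where 25.5% of all genes were lower. In parental cells its 3 of 13 were close to 9 of 36 for complex I and 1 of 4 for complex II, where 15.7% of all genes were lower. COX4I1, a subunit that contacts the catalytic core, was at 351, 344 and 355 CPM in untreated parental cells, 322, 308 and 305 in treated parental cells, 335, 339 and 359 in untreated SDS22-degron cells and 319.6, 299 and 299 in treated SDS22-degron cells. The treated libraries were below the untreated ones in each line, with -0.17 (SE 0.059, adjusted p = 0.0222) and -0.17 (SE 0.059, adjusted p = 0.0373), calls that were lost in 4 and 9 of 26 alternatives. Among these were fits without replicate 3 of untreated or 2 of treated SDS22-degron cells for the former (adjusted p = 0.0943 and 0.0711). For the latter they were those without replicates 1 or 3 of untreated parental, 2 or 3 of treated parental or 2 of untreated SDS22-degron cells, at adjusted p of 0.0542 to 0.121. COX5A changed by -0.27 (SE 0.065, adjusted p = 0.00177) and -0.25 (SE 0.065, adjusted p = 0.00688), and COX5B by -0.089 (SE 0.065, adjusted p = 0.266) and -0.23 (SE 0.065, adjusted p = 0.0112). With a correction for gene length, COX5A in SDS22-degron cells had -0.15 (adjusted p = 0.0603). The parental COX5B call was lost with library size only (-0.17, adjusted p = 0.0503) and without replicate 3 of treated parental cells (-0.21, adjusted p = 0.0511). COX7B (-0.43, SE 0.077, adjusted p = 0.000136) and COX8A (-0.24, SE 0.080, adjusted p = 0.0159) were lower in SDS22-degron cells. COX8A has the shortest gene model of the tested complex IV genes, and with a correction for gene length its log2 fold change was -0.062 (adjusted p = 0.546). Its call was also lost without replicate 1 or 2 of untreated or replicate 3 of treated SDS22-degron cells, at -0.23 to -0.21 (adjusted p of 0.0568 to 0.0658). COX6A1, COX6C, COX7A2, COX7A2L, COX7C and NDUFA4 passed in neither line, with values from -0.11 to 0.11 in SDS22-degron cells.

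Of the members, 29 were lower in both, which was 60.4% of the 48 lower in SDS22-degron and 87.9% of the 33 lower in parental cells. Among all 16657 tested genes, 1863 (11.2%) were lower in both, out of 4241 lower in SDS22-degron and 2608 lower in parental cells. The fold changes of the lines, which share no libraries, had Pearson's r of 0.640 over the 93 members and 0.645 over all tested genes, given as descriptions since genes are not independent. The fold change was lower in SDS22-degron than in parental cells for 66 of 93 members and for 8367 of all 16657 tested genes. The interaction of line and treatment passed the test for 4 members, 3 lower and 1 higher, against 8.35% and 6.03% of all genes. The median of the interaction was -0.090 over the members and -0.0019 over all genes. In size it was below the SE of each of the 4 members that passed, given below. A difference of that size was thus not detectable for single genes with such an SE. The median SE of the interaction over all genes was 0.156. Under Dox/IAA in SDS22-degron cells the median SE was 0.075 over the members and 0.11 over all genes. Leaving out 1 library moved the members' median of the interaction between -0.13 and -0.043, the latter without replicate 2 of treated parental cells. It was -0.058 without replicate 3 of untreated parental cells.

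**Figure D3:**
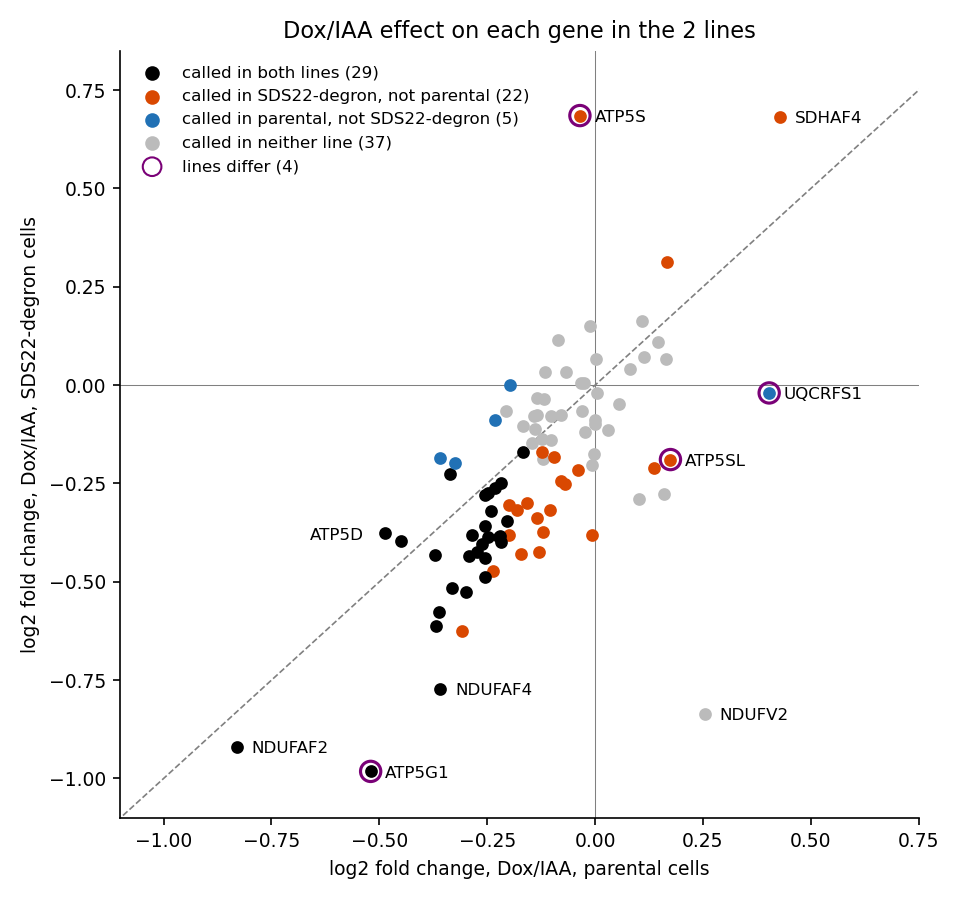
Log2 fold change under Dox/IAA in parental cells (horizontal) against SDS22-degron cells (vertical) for the 93 tested members; the dashed line marks equal change. Black points (29) were called in both lines, and rings mark the 4 members whose change differed between the lines: ATP5G1, UQCRFS1, ATP5SL and ATP5S.

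ATP5G1 fell more in SDS22-degron than in parental cells, with a difference in log2 fold change of -0.46 (SE 0.11, adjusted p = 0.00992). For UQCRFS1 the difference was -0.42 (SE 0.093, adjusted p = 0.00484). Its rise in parental cells started from the lowest level of the 4 groups. ATP5SL (DMAC2, an assembly factor of the complex I membrane arm) had -0.36 (SE 0.10, adjusted p = 0.0197), with -0.19 (SE 0.070, adjusted p = 0.0306) in SDS22-degron and 0.17 (SE 0.071, adjusted p = 0.0682) in parental cells. The ATP5SL call was lost without any 1 of 4 libraries, replicate 2 of treated parental cells, replicates 2 and 3 of untreated SDS22-degron cells and replicate 2 of treated SDS22-degron cells, at adjusted p of 0.0505 to 0.0551. Without replicate 2 of untreated parental cells, 8 members were lower in the interaction, without replicate 1 of either treated group 5 were, and with pseudogene copies added to their parent genes 5 were.

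ATP5S (DMAC2L, also called factor B; ENSG00000125375, chr14:50312326-50335558, plus strand) had the highest log2 fold change of the members called under Dox/IAA. It was at 9.12, 7.43 and 8.73 CPM in untreated parental cells, 8.997, 8.06 and 7.55 in treated parental cells, 10.4, 11.6 and 10.6 in untreated SDS22-degron cells and 18.9, 17.4 and 16.2 in treated SDS22-degron cells. The treated SDS22-degron libraries were above all 9 others and the untreated SDS22-degron libraries above all parental ones. Treatment changed it by 0.69 (SE 0.11, adjusted p = 4.59e-05) in SDS22-degron and -0.035 (SE 0.13, adjusted p = 0.863) in parental cells, with an interaction of 0.72 (SE 0.17, adjusted p = 0.00737). At 0.997 RPKM it was a low transcript. Its interval overlaps CDKL1 on the other strand, whose log2 fold change in SDS22-degron cells was -0.82, in the opposite direction.

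Genes that work beside the members were more often lower than higher under Dox/IAA, apart from those on mitochondrial DNA. CYC1 and CYCS, the cytochromes c1 and c, were both lower in treated SDS22-degron cells, at -0.67 (adjusted p = 2.43e-07) and -0.59 (adjusted p = 0.000403), with -0.40 (adjusted p = 0.000224) and -0.25 (adjusted p = 0.126) in parental cells. Of 35 assembly factors whose names fall outside the prefixes, 18 were lower and 1 higher in SDS22-degron cells, and 14 lower in parental cells. The lowest in both was BCS1L, which inserts the Rieske protein into complex III (-0.89 and -0.63). ECSIT (-0.88 and -0.29) and FOXRED1 (-0.78 and -0.39), which assemble complex I, were lower in both lines. Of 16 genes of the citrate cycle and pyruvate dehydrogenase, 9 were lower and 1 higher in SDS22-degron cells and 7 and 1 in parental cells. Among all genes, 25.5% were lower and 26% higher in SDS22-degron cells, and 15.7% and 15.9% in parental cells.

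The 13 protein-coding genes of mitochondrial DNA had more higher than lower calls in both lines. In parental cells 10 were higher, with a median of 0.40, where 15.9% of all genes were higher. In SDS22-degron cells 5 were higher and 1 lower (MT-ND6, -1.06), with a median of 0.24. Of all genes, 26% were higher and 25.5% lower there.

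Of 13 tested regulators of mitochondrial genes, 11 were lower and 1 higher in treated SDS22-degron cells and 7 and 1 in parental cells. The shares of all genes were 25.5% and 26% in SDS22-degron and 15.7% and 15.9% in parental cells. The coactivators PPARGC1B (-1.14 and -0.67) and PPRC1 (-0.76 and -0.51) and the transcription factor MYC (-1.30 and -1.18) were lower in both lines. NRF1 was lower in SDS22-degron cells, at -0.46 (adjusted p = 0.00025), and had -0.15 (adjusted p = 0.218) in parental cells. The ETS factor GABPA had -0.019 and -0.032, neither called. The part of any of these transcripts in the members' fall was not tested.

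Before any treatment, the lines already differed in some members. In untreated SDS22-degron against untreated parental cells, 11 members were higher and 10 lower, with a median of 0.067. Without replicate 2 or 3 of untreated SDS22-degron cells 7 were higher. The median was 0.12 without replicate 2 of untreated parental cells, where that of all genes was 0.025. In the fit of all 12 libraries, 13.2% of all genes were higher and 15% lower, with a median of 0.0034. SDHAF3 had the highest log2 fold change of the called members, at 0.61 (SE 0.11, adjusted p = 0.000313), from 9.79, 11.7 and 11.2 to 15.2, 17.6 and 17.1 CPM, followed by UQCRFS1 at 0.40 (SE 0.066, adjusted p = 0.000171) and NDUFAF8 at 0.40 (SE 0.085, adjusted p = 0.00163). The lowest were NDUFAF3 (-0.55, SE 0.082, adjusted p = 6.64e-05), NDUFS5 (-0.48, SE 0.066, adjusted p = 2.94e-05) and NDUFB4 (-0.45, SE 0.065, adjusted p = 4.75e-05).

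The lower members lay mostly on 3 chromosomes. On chromosome 3, all 4 members were lower in the untreated SDS22-degron cells: NDUFAF3, NDUFB4, NDUFB5 (-0.41) and UQCRC1 (-0.35). The median of all 939 tested genes of that chromosome was -0.27, and 44.7% of them were lower. On chromosome 16, NDUFAB1 (-0.43) and UQCRC2 (-0.39) were lower and NDUFB10 and COX4I1 had -0.19 and -0.024, with a median over the chromosome of -0.30. On chromosome 1, NDUFS5 and SDHB (-0.25) were lower and all 7 members were below 0, against a median of -0.13. These 3 chromosomes, singled out after seeing the values, held 8 of the 10 lower members (80%) and 48.5% of all lower genes, with 19.96% of the tested genes. Chromosomes 8 and 15 also had medians below 0 over all their genes (-0.11 and -0.10), with 25.6% and 19.5% of genes lower. Of their members, 3 of 4 and 1 of 2 were below 0 and 0 were called lower. The lower members outside chromosomes 1, 3 and 16 were NDUFC1 on chromosome 4 (-0.40, SE 0.088, adjusted p = 0.00205) and ATP5G2 on chromosome 12 (-0.29, SE 0.085, adjusted p = 0.015). The ATP5G2 call was lost without replicate 1 of untreated parental cells.

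**Figure D4:**
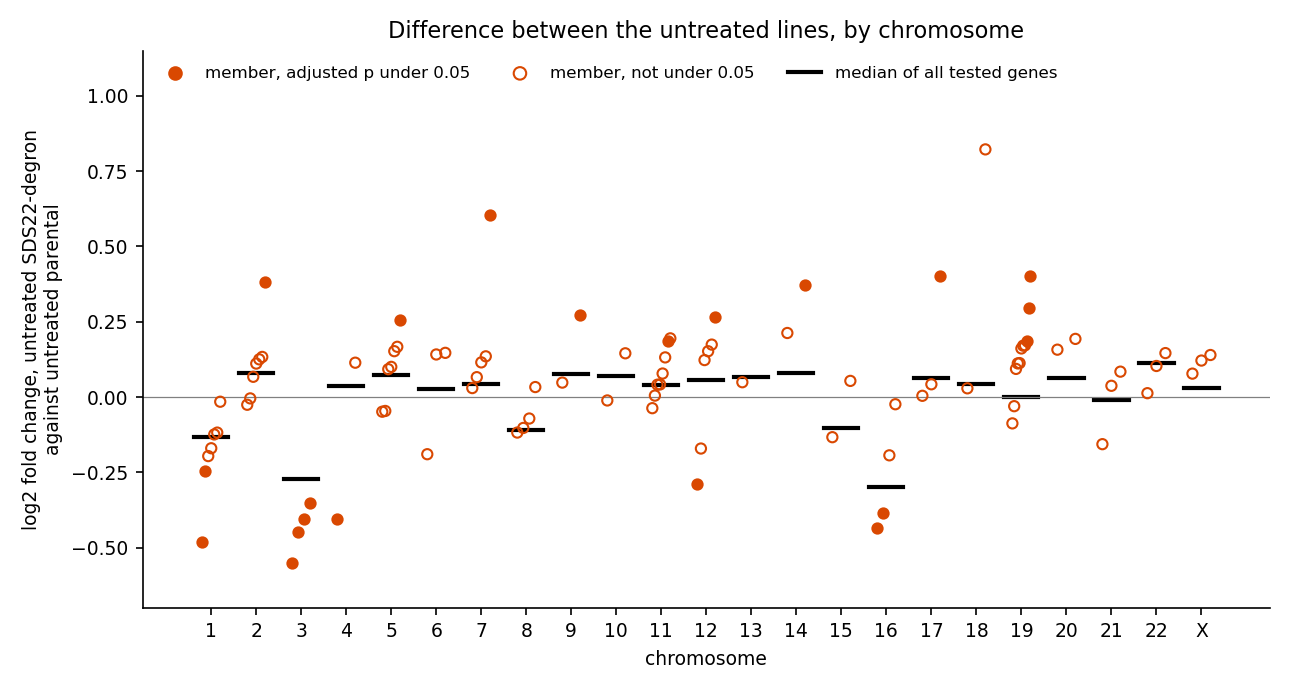
Log2 fold change of each tested member between the untreated lines, by chromosome. Points are genes, filled where the adjusted p was under 0.05, and black bars are the median of all tested genes of the chromosome. The members of chromosomes 1, 3 and 16 all lie below 0, as do the medians of these chromosomes (-0.13, -0.27 and -0.30).

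Genes within 2.5 Mb on either side gave a closer comparison. For NDUFAB1, an acyl carrier protein that is part of complex I, the median of its neighbours was -0.44 over 32 genes, close to its own -0.43. For UQCRC1 the neighbours were at -0.28 over 92 genes, against -0.35 (95% interval -0.48 to -0.23). NDUFAF3 (-0.55, -0.72 to -0.38) and NDUFS5 (-0.48, -0.62 to -0.34) were below their neighbours, which were at -0.28 over 94 genes and -0.15 over 51 genes. COX4I1 (-0.15 to 0.099) lay near the end of chromosome 16, where the median of its neighbours was -0.069 over 32 genes. The tag and the history of the clone cannot be told apart here.

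Between the treated lines, the comparison of the study, 10 members were higher and 17 lower, with a median of -0.029. That median moved with single libraries: it was 0.0039 without replicate 2 and -0.073 without replicate 3 of treated parental cells, and -0.048 without replicate 1 and -0.0091 without replicate 3 of treated SDS22-degron cells. Among all genes 21.8% were higher and 23.1% lower, with a median of -0.0056. NDUFAF3 (-0.78, SE 0.086, adjusted p = 8.73e-07), NDUFS5 (-0.62, SE 0.067, adjusted p = 7.61e-07) and NDUFAB1 (-0.62, SE 0.071, adjusted p = 1.42e-06) had the lowest values. NDUFAF3 was at 50.99, 51.8 and 54.1 CPM in untreated parental cells, 47.3, 40.6 and 43.6 in treated parental cells, 34.4, 35.6 and 37.05 in untreated SDS22-degron cells and 22.7, 27.4 and 26.4 in treated SDS22-degron cells, so that the treated SDS22-degron libraries were the lowest and those of the untreated SDS22-degron line lay below both parental groups. Chromosomes 1, 3 and 16 held 12 of the 17 lower members (70.6%) and 34.3% of all lower genes. The 5 others were NDUFC1 (-0.37), NDUFS3 (-0.17), NDUFS7 (-0.27), NDUFAF1 (-0.38) and ATP5G1 (-0.46, SE 0.082, adjusted p = 0.000183). NDUFC1 and NDUFS7 overlap NAA15 (-0.45) and AC005329.7 (-0.65) on the other strand. NDUFS3 overlaps CELF1 (-0.40) and KBTBD4 (-0.23) on the other strand and PTPMT1 (0.13) on its own. Whether the reads of such pairs were kept apart was not tested. Between the untreated lines, ATP5G1 had 0.0041 with a 95% interval of -0.16 to 0.17.

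Of the members higher in treated SDS22-degron cells, ATP5S (1.09, SE 0.12, adjusted p = 5.90e-07), SDHAF3 (0.50, SE 0.11, adjusted p = 0.00115) and NDUFA2 (0.35, SE 0.069, adjusted p = 0.000466) stood at the top. ATP5S was the only member past the cut-off of the study (more than 1 on the log2 scale in either direction at an unadjusted p under 0.05), which 6.63% of all genes passed. Its level in treated SDS22-degron cells was 17.5 ± 1.35 CPM (SD, n = 3) against 8.203 ± 0.733 in treated parental cells. The other members higher there were SDHAF1 (0.35), NDUFAF7 (0.30), COX7A2L (0.27), NDUFB11 (0.24), NDUFA8 (0.24), ATP5D (0.22) and COX6A1 (0.21). The COX6A1 call was lost in 5 of 26 alternatives, among them the fits without replicate 2 or 3 of either treated group, and its pseudogenes held 11325 counts.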

How the data were processed

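The authors deposited raw counts of single 75-base reads per gene for 12 libraries of poly-A selected, stranded RNA, together with each gene's GC content in percent, length and position. Per the submitters' processing notes, cutadapt 1.15, Bowtie2 2.3.3.1, STAR 2.5.2b, SAMtools 1.5, featureCounts 1.5.3 and GRCh38 were used, while the strand setting of the counting is not given in the sources used here. Samples were grouped by their labels, and 0 columns remained unmapped. Counts were filtered with filterByExpr (minimum count 10), which left 16657 genes, normalized by TMM and fitted in edgeR 4.0.16 (R 4.3.3), the model holding 1 mean per group. The quasi-likelihood F test was used for 5 comparisons, with Benjamini-Hochberg adjustment over all tested genes and calls at an adjusted p under 0.05. Fold changes are given on the log2 scale with SE and 95% intervals from the fit. RPKM was computed from CPM and the deposited gene length.

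Members and lists were chosen with earlier results of these data known. Members were named where they were the 3 highest or 3 lowest called in a comparison, passed the study's cut-off, encode core catalytic subunits or have tissue isoforms; further members are given as examples of their complex, chosen after their values were seen, and some results are not reported here. Of the 93 tested members, 46 overlap another gene and 40 have named pseudogenes with counts. Over the 27 with neither, 12 were lower and 1 higher under Dox/IAA in SDS22-degron cells (median -0.18). In parental cells, 10 of them were lower and 0 higher (median -0.14). The shares over all genes were 25.5% lower and 26% higher in SDS22-degron cells, and 15.7% and 15.9% in parental cells. Names of IDs and promoters were matched to RefSeq, and the motifs were written from general knowledge. Replicates differed by more than counting noise. Alternatives were other tests (the likelihood ratio test, DESeq2 1.42.0), scalings, filters, GC and length corrections, the replicate block and each library left out. The procedure was tested on simulated data. Floors and counts cover counting error only.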

Additional observations from a re-analysis of the deposited data

Results flagged for a closer look

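The effect of Dox/IAA differed between SDS22-degron and parental cells for 4 members by the test of the interaction in edgeR. The difference in log2 fold change was -0.46 for ATP5G1 (adjusted p = 0.00992), which fell in both lines and more in SDS22-degron cells, and all 25 alternatives kept it between -0.52 and -0.38. For UQCRFS1 it was -0.42 (adjusted p = 0.00484), between -0.47 and -0.39 over the alternatives, from a rise in the 3 treated libraries of parental cells and overlapping groups in SDS22-degron cells. ATP5S had 0.72 (adjusted p = 0.00737), between 0.65 and 0.78, and ATP5SL had -0.36 (adjusted p = 0.0197), between -0.45 and -0.33. Groups of 3 libraries were too small to be searched for outliers, and no member moved apart in opposite directions in the lines.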

How the results depend on the processing

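Of 55 named calls under 25 or 26 alternatives each, 1381 of 1426 values kept their direction and side of the threshold, 45 were no longer past it and 0 reversed. The replicate number as a block gave 5 lower members in the interaction and 3 higher members in parental cells, and all 12 libraries correlated best with their own number, as a hint from the data. Same-numbered libraries correlated at -0.057 to 0.246, over 0.1 in 7 of 18 pairs, and the labels tie no number to a culture or day, so that the fits as reported hold no block. With the cut-off of the study (p under 0.05 and more than 1 on the log2 scale), the treated lines had 1 higher and 0 lower members and the other comparisons 0 in each direction. Under Dox/IAA in parental cells, the higher members (1 as reported) were 2 with the likelihood ratio test, RLE factors, either other filter and the GC correction with or without block, 3 with library size only, upper quartile factors and the length correction, and 4 with length correction and block. The lower members there were 19 with library size only (median -0.075, against 0.060 over all genes). In SDS22-degron cells the higher members were 5 with library size only or upper quartile factors, 6 with the length correction and 7 with the block added. Between the untreated lines, 7 were higher without a filter and 17 were lower with GC correction and block. The median there was 0.10 with upper quartile factors, against 0.039 over all genes. Between the treated lines, 17 were higher with length correction and block. With pseudogene copies added to their parent genes, chosen after seeing the data, 5 were lower in the interaction.

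Leaving out each library gave 7 to 10 higher and 12 to 21 lower members between the treated lines (median -0.073 to 0.0039), and 7 to 12 and 10 to 11 between the untreated lines (median 0.050 to 0.12, the highest without replicate 2 of untreated parental cells). Under Dox/IAA it gave 2 to 5 higher and 42 to 51 lower in SDS22-degron cells, 1 to 2 and 18 to 34 in parental cells, and 2 to 8 lower in the interaction (median -0.13 to -0.043). The cause of these shifts was not tested. The median SE over all tested genes, 0.11 under Dox/IAA in SDS22-degron cells and 0.156 in the interaction, limits what single genes can show. Over the members the former was 0.075. In addition, 3 libraries per group with 1 clone limit how far the values extend to other cultures.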
